A study of Homo sapiens with 18 samples.

Results

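U2OS-MycER cells given siRNA against RAD21 together with a drug that activates MycER were compared with cells that received neither treatment, 24 h after transfection. The comparison rests on 4 of the 18 RNA-seq libraries of the study, 2 of siRAD21 OHT cells and 2 of siCtrl cells, chosen by their labels, and on 14993 of 23399 genes, those with a mean of at least 1 eRPKM over the 18 libraries. U2OS is a human osteosarcoma cell line. All groups carry MycER, the Myc protein fused to the hormone-binding part of the estrogen receptor, delivered by a retrovirus (pBabe-puro), so the control cells hold it too. The siRAD21 OHT cells were transfected with siRNA against RAD21 and received 400 nM 4-hydroxytamoxifen (OHT) with the transfection. The siCtrl cells were transfected with siRNA against Renilla luciferase, a gene that human cells lack, and received ethanol, the solvent. The other 24 h groups, siCtrl OHT and siRAD21, have 2 libraries each and show what each treatment adds to the other. At 48 h there are 2 siRAD21 OHT libraries and 3 siCtrl libraries. No library comes from cells without MycER given OHT, and RAD21 was silenced with a single siRNA pool. Other effects of OHT or of that pool cannot be told apart from MycER activation and RAD21 loss.

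Cohesin is a ring of SMC1A, SMC3 and the kleisin RAD21, bound by STAG1 or STAG2, that holds sister chromatids together and forms chromatin loops. NIPBL with MAU2 loads it, WAPAL (now WAPL) and PDS5 release it, ESCO1 and ESCO2 acetylate it, and CTCF marks many of the places where loops end. Myc pairs with Max and binds E-boxes, of which CACGTG is the best known. It is known for raising genes of ribosome and nucleotide synthesis and for lowering genes of adhesion and matrix. MycER is held inactive until it binds OHT.

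The promoters below are shown because an E-box is the site that Myc and Max are known to bind, and because these genes are among the 12 largest rises and 12 largest falls of the comparison. RefSeq promoter sequences (build GRCh38.p14, 250 bases before to 50 bases after a transcription start) were at hand for 17 of these 24 genes. The letters CACGTG, which read the same on both strands, occurred in promoters of 5 of these genes, in 5 of their 28 promoters, and all 5 are printed, followed by 2 rises without them, ADCYAP1R1 and RGS16. Capitals mark CACGTG, and positions count from the first base of the motif to the start. In CR2 (chr1:207454078-207454377, plus strand) the motif began 45 bases before the start. In FAM222A-AS1 (chr12:109773438-109773737, minus strand) it occurred at 227 bases before and 4 bases after the start. One of the starts of PDZRN3 (chr3:73561531-73561830, minus strand) had it at 188 and 119 bases before. In DRD1 (chr5:175444133-175444432, minus strand), which fell, it lay 111 bases before the start, and in NXT2 (chrX:109536955-109537254, plus strand), which also fell, 98 bases before one start. The promoters without it are those of ADCYAP1R1 (chr7:31052058-31052357, plus strand) and RGS16 (chr1:182604340-182604639, minus strand).
CR2: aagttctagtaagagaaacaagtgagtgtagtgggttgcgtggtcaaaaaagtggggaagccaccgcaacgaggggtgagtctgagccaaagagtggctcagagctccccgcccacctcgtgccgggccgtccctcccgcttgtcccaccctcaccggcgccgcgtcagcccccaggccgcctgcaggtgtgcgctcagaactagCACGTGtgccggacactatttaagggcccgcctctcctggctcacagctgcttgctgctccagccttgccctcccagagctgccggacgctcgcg
FAM222A-AS1: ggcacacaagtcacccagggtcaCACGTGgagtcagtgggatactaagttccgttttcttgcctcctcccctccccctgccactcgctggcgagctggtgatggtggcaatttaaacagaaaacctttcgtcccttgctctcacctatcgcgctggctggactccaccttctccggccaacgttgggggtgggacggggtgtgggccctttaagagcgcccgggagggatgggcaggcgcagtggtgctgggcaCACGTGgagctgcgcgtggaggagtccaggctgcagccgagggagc
PDZRN3: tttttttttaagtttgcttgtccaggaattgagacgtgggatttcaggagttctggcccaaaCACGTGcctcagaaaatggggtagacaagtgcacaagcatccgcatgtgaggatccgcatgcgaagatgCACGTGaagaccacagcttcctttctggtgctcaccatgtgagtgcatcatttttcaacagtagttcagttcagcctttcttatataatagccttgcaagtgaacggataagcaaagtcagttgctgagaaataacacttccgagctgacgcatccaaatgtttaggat
DRD1: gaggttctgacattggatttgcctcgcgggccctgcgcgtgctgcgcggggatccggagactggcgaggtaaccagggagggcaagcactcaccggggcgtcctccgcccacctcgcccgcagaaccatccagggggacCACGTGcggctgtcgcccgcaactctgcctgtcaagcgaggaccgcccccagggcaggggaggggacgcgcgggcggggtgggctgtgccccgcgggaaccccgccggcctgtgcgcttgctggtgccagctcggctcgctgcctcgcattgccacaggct
NXT2: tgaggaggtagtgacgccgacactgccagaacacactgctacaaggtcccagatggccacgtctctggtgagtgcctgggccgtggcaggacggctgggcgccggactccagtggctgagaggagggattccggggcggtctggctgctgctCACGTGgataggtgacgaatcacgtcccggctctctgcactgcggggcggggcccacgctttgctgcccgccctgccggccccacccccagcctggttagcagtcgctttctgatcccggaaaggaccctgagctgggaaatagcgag
ADCYAP1R1: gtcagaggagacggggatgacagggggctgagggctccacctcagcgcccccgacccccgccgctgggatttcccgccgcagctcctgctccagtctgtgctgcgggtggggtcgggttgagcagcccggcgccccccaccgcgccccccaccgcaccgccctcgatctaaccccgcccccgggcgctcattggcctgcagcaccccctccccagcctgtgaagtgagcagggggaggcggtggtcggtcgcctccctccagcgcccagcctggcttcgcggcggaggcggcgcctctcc
RGS16: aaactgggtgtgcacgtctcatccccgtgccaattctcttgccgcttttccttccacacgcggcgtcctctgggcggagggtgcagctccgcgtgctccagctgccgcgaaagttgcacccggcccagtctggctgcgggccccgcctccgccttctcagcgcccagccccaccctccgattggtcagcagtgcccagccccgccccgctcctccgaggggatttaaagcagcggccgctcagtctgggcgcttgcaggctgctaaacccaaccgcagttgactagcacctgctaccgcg

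CACGTG stood in 7.26% of all 35116 RefSeq promoters of this length and in 9.11% of the 15185 promoters of genes tested. Among promoters of genes called higher it stood in 105 of 1065 (9.86%), and among those of genes called lower in 69 of 1066 (6.47%). These shares describe letters in a window and were not tested.

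The reads per library, recovered from the deposited values, ranged from 10941845 to 12678599 in the 24 h libraries, so 1 read in a transcript of 1 kb was worth 0.0789 to 0.0914 eRPKM (reads over the exons of a gene divided by its length and by the depth of the library). Libraries of the same group correlated at r = 0.987 for siCtrl and 0.988 for siRAD21 OHT across genes on the log2 scale. The methods of the study call the replicates biological, but the labels tie no library to a culture of its own. P-values and SEs thus measure the spread between libraries within groups, which may be technical. That spread was estimated from all 18 libraries in 8 groups, the 48 h groups included. Among these is the siRAD21 OHT pair at 48 h, which differed by no more than sampling noise. Because duplicate reads were removed, no gene could exceed a ceiling of 157.7 to 182.8 eRPKM in the 24 h libraries, and the highest genes reached 137.9 to 170.9. Changes of genes that come near this ceiling may thus be understated. Of markers of a mesenchymal line, VIM was at 105 to 119 eRPKM and THY1 at 69.2 to 81.5 in the 24 h libraries, whereas COL1A2 (0 to 0.0879) and TWIST1 (0 to 0.0516) were nearly absent. The summed level of the 10 mesenchymal markers was 366.9 to 403.2 eRPKM in siCtrl and 352.9 to 367.6 in siRAD21 OHT cells. The 8 epithelial markers summed to 48.78 to 54.16 and 29.64 to 30.68, with KRT19 at 0 in every 24 h library. The 8 leukocyte markers summed to 19.87 to 21.45 and 15.05 to 15.96, with CD3E and HLA-DRA at or near 0. CD68 made up most of that sum, at 18.2 and 16.7 eRPKM in siCtrl and 10.8 and 11.2 in siRAD21 OHT cells, and 85.6% of its exon bases overlap other annotated genes. The 5 endothelial markers summed to 1.588 to 1.75 and 1.686 to 1.793. In these bulk samples, fewer cells that express a gene and less RNA of it per cell cannot be told apart.

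RAD21 mRNA, the target of the siRNA, was 72.2 and 69.3 eRPKM in the 2 siCtrl libraries and 15.8 and 15.6 in the 2 siRAD21 OHT libraries. It was 18.1 and 18.6 with silencing alone and 66.4 and 71 with OHT alone. All 24 h libraries with the siRNA were thus far below all 24 h libraries without it, as the siRNA part of their labels states. RAD21 levels cannot check the OHT part. The log2 fold change of siRAD21 OHT over siCtrl was -2.14 ± 0.051 (SE, n = 2 and 2, limma, Benjamini-Hochberg adjusted p = 9.97e-12). RAD21 reached at most 48.5% of its duplicate ceiling in any of the 18 libraries. Of its exon bases, 5.9% overlap other annotated genes, UTP23 and RAD21-AS1 on the opposite strand and MIR3610 on the same strand.

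Of the 14993 genes, 1969 (13.1%) were called, where a call needed a log2 fold change beyond 0.5 in size and an adjusted p under 0.05. Of these, 993 (6.62%) were higher and 976 (6.51%) lower in siRAD21 OHT cells, and 221 and 181 of them changed by more than 1 on the log2 scale. The median log2 fold change over all genes was 0.0011, and the middle 50% of genes lay between -0.18 and 0.169. Adding OHT to RAD21-depleted cells called 1785 genes (11.9%), 643 higher (4.29%) and 1142 lower (7.62%), and this split became 814 and 860 after quantile normalization. Silencing RAD21 under OHT called 970 genes (6.47%), 560 higher (3.74%) and 410 lower (2.73%). All of these comparisons share the siRAD21 OHT libraries, so their values are given side by side and not correlated.

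**Figure D1:**
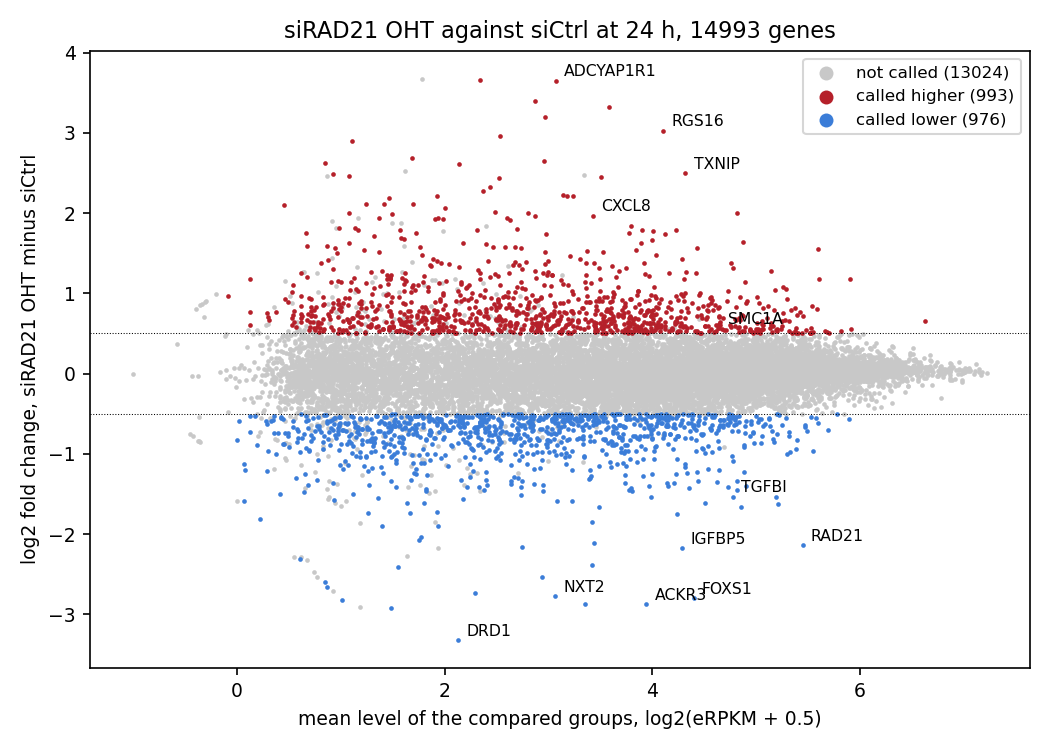
Log2 fold change of siRAD21 OHT over siCtrl at 24 h (vertical axis) against the mean level of both groups as log2(eRPKM + 0.5) (horizontal axis), 1 point per gene. The 993 genes called higher are red, the 976 called lower blue, and dotted lines mark the threshold of 0.5. Most genes lie near 0, and RAD21 is among the highest expressed genes that fell.

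The largest rises started from low levels. ADCYAP1R1, the receptor of the neuropeptide PACAP, was at 0.672 and 0.805 eRPKM in siCtrl cells and at 15 and 15.1 in siRAD21 OHT cells. It was at 13.1 and 12 with OHT alone and at 0.707 and 0.929 with silencing alone. Both groups with OHT were high and both without it low. Its log2 fold change was 3.65 ± 0.136 (SE, adjusted p = 5.99e-10). OHT in depleted cells changed it by 3.56 and silencing under OHT by 0.25 (not called). These comparisons start from different groups and both end in siRAD21 OHT cells, so their log2 fold changes do not add up to the combined one.

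PDE1B, a calmodulin-dependent phosphodiesterase of cyclic nucleotides, rose from 1.4 and 2.02 eRPKM to 21.3 and 21.4, by 3.32 ± 0.13 on the log2 scale. CR2, the complement receptor CD21, rose from 0.811 and 0.719 to 13.6 and 12.2, by 3.4 ± 0.117. CAMKV, a pseudokinase of the calmodulin kinase family, rose from 0.94 and 1.16 to 13.7 and 13.6, by 3.19 ± 0.102. MATK, a kinase that phosphorylates Src family kinases, rose from 0.717 and 0.928 to 9.34 and 10.2, by 2.96 ± 0.157. In all 4 genes OHT in depleted cells was called and silencing under OHT was not, and the siCtrl OHT libraries lay close to the siRAD21 OHT libraries, at 22.3 and 23.6 for PDE1B.

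FAM222A-AS1, a long noncoding RNA, had 3 and 2 reads in the siCtrl libraries and 99 and 77 in the siRAD21 OHT libraries, or 0.316 and 0.182 against 9.81 and 8.02 eRPKM. With so few control reads its fold is not given. SLC27A2, a fatty acid transporter and acyl-CoA synthetase, rose from 0.633 and 0.863 to 6.58 and 7.58 eRPKM, and 19.9% of its exon bases overlap ATP8B4 on the opposite strand. G0S2, an inhibitor of the lipase ATGL, rose from 3.13 and 2.87 to 16.5 and 21 eRPKM.

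Some rises were called both for OHT in depleted cells and for silencing under OHT. RGS16, which switches off G protein signals, was at 3.3 and 3.2 eRPKM in siCtrl, 15.9 and 16.5 in siCtrl OHT, 4.28 and 4.26 in siRAD21 and 28.8 and 31.4 in siRAD21 OHT cells. The siRAD21 OHT libraries were the highest and none overlapped another group. Its combined log2 fold change was 3.03 ± 0.11, beside 2.68 for OHT in depleted cells and 0.88 for silencing under OHT. PDZRN3, a ubiquitin ligase, rose by 2.64 ± 0.151, beside 2.17 and 0.502 in these comparisons, the latter barely past the threshold of 0.5. TXNIP, an inhibitor of thioredoxin and of glucose uptake, went from 4.81 and 6.29 eRPKM in siCtrl to 10.3 and 12 in siRAD21, 24.1 and 22.6 in siCtrl OHT and 33.4 and 33.5 in siRAD21 OHT cells. Its change on silencing under OHT, 0.51, did not pass the test (adjusted p = 0.0909).

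**Figure D2:**
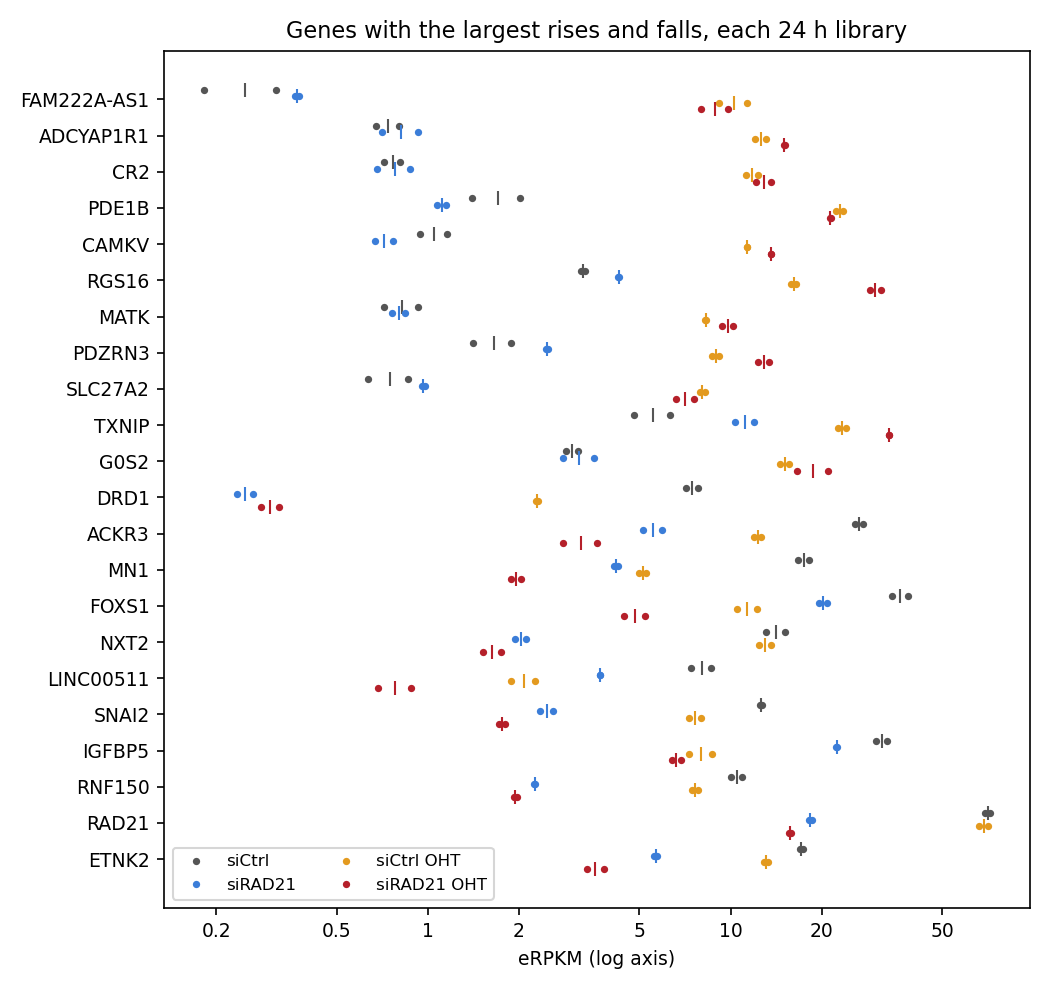
Level of the genes with the largest rises (top) and falls (bottom) in each 24 h library, in eRPKM on a log axis, for siCtrl, siRAD21, siCtrl OHT and siRAD21 OHT cells. Points are libraries and ticks are means of 2, and 2 miRNA genes with few reads are left out. ADCYAP1R1 separates by OHT, NXT2 by the siRNA, and FOXS1 by both.

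Genes that fell with both treatments, each called in both of these comparisons, included ACKR3, a scavenging chemokine receptor. It was at 25.7 and 27.4 eRPKM in siCtrl, 12.6 and 12 in siCtrl OHT, 5.15 and 5.92 in siRAD21 and 2.8 and 3.61 in siRAD21 OHT cells. The groups did not overlap, and the combined log2 fold change was -2.88 ± 0.17 (SE, adjusted p = 2.6e-08). FOXS1, a forkhead transcription factor, was at 38.6 and 34.2 in siCtrl, 10.5 and 12.2 in siCtrl OHT, 19.7 and 20.8 in siRAD21 and 4.44 and 5.21 in siRAD21 OHT cells. Its log2 fold change was -2.79 ± 0.099, beside -1.96 for OHT in depleted cells and -1.15 for silencing under OHT.

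MN1, a transcriptional coregulator, fell from 16.7 and 18.2 to 1.88 and 2.03 eRPKM, by 2.87 ± 0.263 on the log2 scale. LINC00511, a long noncoding RNA, fell from 8.63 and 7.42 to 0.684 and 0.878, by 2.74 ± 0.112. ETNK2, an ethanolamine kinase, fell from 17.3 and 16.9 to 3.35 and 3.81, by 2.11 ± 0.108, and 23.6% of its exon bases overlap other annotated genes.

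DRD1, the D1 dopamine receptor, was at 7.15 and 7.81 eRPKM in siCtrl, 2.31 and 2.27 in siCtrl OHT, 0.265 and 0.235 in siRAD21 and 0.281 and 0.322 in siRAD21 OHT cells. It was the largest fall named (-3.32 ± 0.194). Both groups with the RAD21 siRNA were near the floor (11 to 12 reads in siRAD21 OHT cells), so a further fall could hardly be seen there. Adding OHT to depleted cells changed it by 0.095 (limma, adjusted p = 0.74). OHT alone was called lower (-1.51, limma, adjusted p = 7.44e-05). NXT2, an mRNA export factor, was at 13.1 and 15.1 in siCtrl, 13.6 and 12.4 in siCtrl OHT and 1.74 and 1.52 in siRAD21 OHT cells. SNAI2, the transcription factor Slug, was at 12.5 and 12.7 in siCtrl and 1.79 and 1.71 in siRAD21 OHT cells, and RNF150, a ring finger protein, at 10.1 and 10.9 and at 1.93 and 1.97. SNAI2 was also called lower with OHT alone (7.98 and 7.31 eRPKM, -0.685, limma, adjusted p = 0.0017). RNF150 changed by -0.436 with OHT alone, short of the fold threshold, and NXT2 by -0.109. In depleted cells OHT changed SNAI2 by -0.397 (limma, adjusted p = 0.0309), also short of that threshold. For NXT2, SNAI2 and RNF150 silencing under OHT was called (-2.66, -1.85 and -1.73) and OHT in depleted cells was not. IGFBP5, a binding protein of insulin-like growth factors, showed the opposite arrangement. It fell from 30.1 and 33 to 6.85 and 6.4 eRPKM, with OHT in depleted cells called (-1.69) and silencing under OHT not (-0.245, adjusted p = 0.212). MIR614 and MIR942 were also among the 24 genes, but they are short hairpins with few reads. MIR614 lies in exons of GPRC5A, and MIR942 had 0 reads in 1 siCtrl library and lost its call without that library.

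Of the cohesin ring, loaders and regulators, 15 of 15 genes were tested, and 1 was called higher and 1 lower (6.67% each). Over all genes, 6.62% were called higher and 6.51% lower. Besides RAD21, the called gene was SMC1A, at 19.1 and 20.3 eRPKM in siCtrl and 30.6 and 28.4 in siRAD21 OHT cells (0.57 ± 0.057, adjusted p = 4.28e-06). SMC1A was 28.2 and 27.7 with silencing alone and 21 and 18.6 with OHT alone, so both groups with the siRNA were higher. SMC3 changed by 0.054, STAG1 by 0.064 and STAG2 by -0.049, none of them called. CTCF did not reach the fold threshold at -0.405 (40.4 and 39.4 against 29.5 and 30.4 eRPKM), and MAU2 stood at 0.318 and WAPAL at -0.259.

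In the network of Myc and Max, 2 of 11 genes tested were called higher (18.2%) and 1 lower (9.09%). Over all genes, 6.62% were called higher and 6.51% lower. Transcripts of the MYC gene and of MycER share coding sequence, and their reads cannot be told apart. MYC was at 55.2 and 51.7 eRPKM in siCtrl, 41 and 41.2 in siCtrl OHT, 44.9 and 44.6 in siRAD21 and 29.4 and 30.6 in siRAD21 OHT cells. The siRAD21 OHT libraries were the lowest, and the log2 fold change was -0.82 ± 0.069 (adjusted p = 8.34e-07). MXI1, a Max partner that opposes Myc, rose by 0.65 ± 0.048, and MNT, another such partner, by 0.53, a call lost in several settings (adjusted p = 0.0692 with all genes above 0).

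Of 45 nucleolar ribosome biogenesis genes, a class that Myc is known to raise, 1 was called higher (2.22%, against 6.62% of all genes) and 0 lower, while 42 were above 0 and the median was 0.165. The called gene was RRP12, a ribosome assembly factor, at 23.8 and 23 eRPKM in siCtrl and 34.6 and 35.6 in siRAD21 OHT cells (0.58 ± 0.08). OHT in depleted cells called 12 of the 45 higher (4.29% of all genes were), with a median of 0.389, and silencing under OHT called 0 in either direction, with a median of -0.039. Mitochondrial ribosomal proteins had 1 of 76 called, MRPS25 (0.54, not called without siCtrl replicate 2), and a median of 0.096. Of MRPS25 exon bases, 45.9% overlap other annotated genes, among them NR2C2 on the opposite strand. Cytosolic ribosomal proteins (0 of 82 called, median 0.043), aminoacyl-tRNA synthetases (0 of 20, median 0.11) and TRiC and HSP chaperones (0 of 14, median 0.108) had no calls. SnoRNA host transcripts had 0 of 19 and polyamine genes 0 of 10 called.

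Of 26 purine, pyrimidine and folate enzymes, 2 were called higher (7.69%) and 1 lower (3.85%). Over all genes, 6.62% were called higher and 6.51% lower, so the list as a whole was not above these shares by much. DHODH, which makes orotate for pyrimidines, rose by 0.51 ± 0.108 and IMPDH1, the entry to guanine nucleotides, by 0.53 ± 0.055. Both were called in depleted cells given OHT (0.9 and 0.55) and not on silencing under OHT, and both lost the combined call without siCtrl replicate 2 or siRAD21 OHT replicate 2. Of 23 cholesterol synthesis genes, 3 were called higher (13%) and 1 lower (4.35%). INSIG1, the sterol sensor partner that holds SREBP in the endoplasmic reticulum, was at 28.7 and 28.9 eRPKM in siCtrl, 30.8 and 31.4 in siCtrl OHT, 11.8 and 11.1 in siRAD21 and 15 and 14.9 in siRAD21 OHT cells. It fell by 0.925 ± 0.061, and both groups with the siRNA were low. HSD17B7, PMVK and DHCR7, enzymes of the pathway, rose by 0.59, 0.53 and 0.51, the calls of PMVK and DHCR7 being lost without siCtrl replicate 2.

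Of 43 replication licensing and firing genes 0 were called, with a median of 0.041, where 13.1% of all genes were called. MCM6 came nearest, at 0.46 ± 0.045, while MCM2, MCM3, MCM4 and MCM7 stood at 0.11, 0.18, 0.1 and 0.13 and MCM5 at 0.001. Of 38 mitosis genes 0 were called and 28 were below 0, with a median of -0.074. Of 23 G1/S cyclins, kinases and E2F/RB genes, 2 were called higher (8.7%, against 6.62% of all genes) and 0 lower. CCND2, cyclin D2, rose from 76.8 and 76.1 to 119 and 122 eRPKM (0.65 ± 0.038), at up to 69.3% of its duplicate ceiling in the 18 libraries, and E2F2 by 0.55. Of 7 CDK inhibitors, CDKN2B, which blocks CDK4 and CDK6, fell by 1 on the log2 scale. CHEK2, a checkpoint kinase, was the 1 of 27 DNA damage response genes called, at 19.6 and 18.7 against 29.6 and 33.1 eRPKM (0.69 ± 0.052). Of 47 replication-dependent histones, 3 were called higher and 1 lower (8.51% together), with values from -0.645 for HIST2H2BE to 1.75 for HIST1H3C. CDKN2B and HIST1H3C had means below 5 eRPKM in both groups.

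Of 28 p53 targets, 7 were called higher and 0 lower, 24 were above 0, and the median was 0.309, beside 6.62% called higher and a median of 0.0011 over all genes. PLK3, a polo-like kinase, rose from 18 and 16 to 33.6 and 36.8 eRPKM (1.03 ± 0.11). BTG2, an antiproliferative factor, was at 34.1 and 35.3 in siCtrl, 41.8 and 41.3 in siCtrl OHT, 52 and 51.6 in siRAD21 and 60.1 and 61.7 in siRAD21 OHT cells (0.8 ± 0.046). BBC3, the cell death inducer PUMA, rose by 0.86 ± 0.114 and was higher in both groups with the siRNA. SESN2 and SESN1, sestrins of stress responses, rose by 0.73 and 0.63, FAS, a death receptor, by 0.68, and TP53INP1 by 0.59. In depleted cells OHT called 0 of the 28 higher and 1 lower (median 0.037), and under OHT silencing called 4 higher and 0 lower (median 0.281). Over all genes these comparisons called 4.29% and 3.74% higher. They share libraries and were not compared with each other. BCL2 family genes, which decide on apoptosis, had 2 of 16 called higher (BBC3 and BIK, the latter lost without 3 of the 4 libraries). Of the same family 1 was called lower, BMF at -1.61, with a mean below 5 eRPKM in both groups.

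Of 17 NF-kB cytokine and feedback genes, 7 were called higher (41.2%) and 3 lower (17.6%), with a median of 0.4, where 6.62% of all genes were called higher and 6.51% lower. CXCL8, a neutrophil chemokine, was at 3.54 and 4.26 eRPKM in siCtrl, 11.3 and 10.6 in siCtrl OHT, 8.05 and 9.11 in siRAD21 and 16.5 and 16.9 in siRAD21 OHT cells (1.97 ± 0.24). The siRAD21 OHT libraries were again the highest. BIRC3, an inhibitor of apoptosis, rose by 1.02 ± 0.137 and TNFAIP3, a feedback inhibitor, by 0.82 ± 0.143, both called on silencing under OHT and not for OHT in depleted cells. The cytokines IL11 and LIF changed by -1.16 ± 0.199 and -0.85 ± 0.085. Of 23 interferon-stimulated genes, 0 were called higher and 3 lower (13%), with a median of -0.149, IFI44 falling from 8.36 and 8.52 to 3.06 and 3.01 eRPKM. Among 27 ATF4 and unfolded protein genes, 5 were called higher (18.5%) and 0 lower. They were ATF3, TRIB3, SESN2, FGF21 and DDIT4, with TRIB3, a pseudokinase of amino acid stress, rising from 25.2 and 23.5 to 42.3 and 45.5 eRPKM (0.84 ± 0.066).

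**Figure D3:**
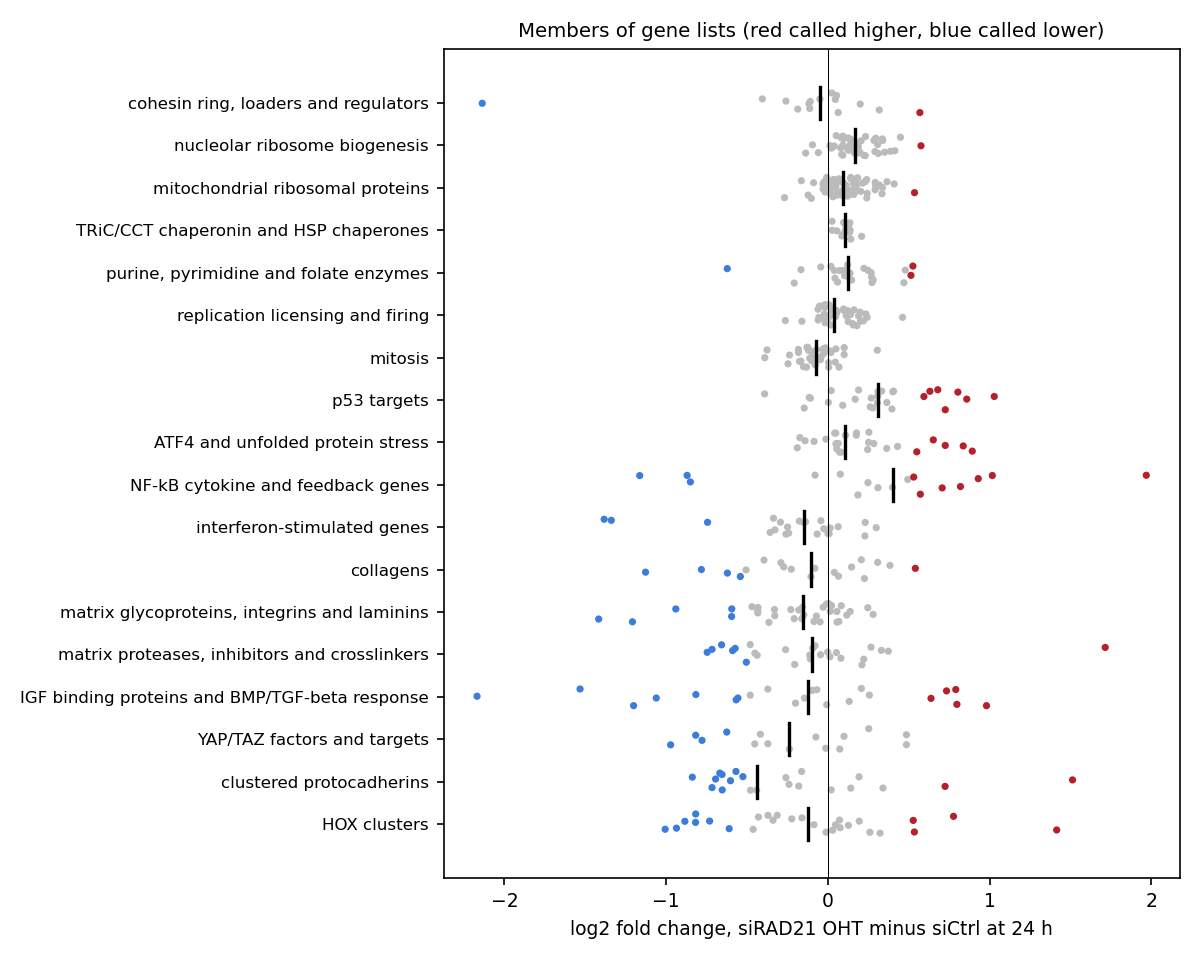
Log2 fold change of siRAD21 OHT over siCtrl at 24 h for tested members of 18 gene lists, 1 point per gene (red called higher, blue called lower, grey not called), with the median as a black bar. Clustered protocadherins have the lowest median (-0.44) and NF-kB genes the highest (0.4), while nucleolar and mitochondrial ribosomal genes crowd just above 0.

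Of 19 collagens 4 were called lower (21.1%) and 1 higher, with a median of -0.104, where 6.51% of all genes were called lower and 6.62% higher. COL5A1 and COL5A2, which form the cores of collagen fibrils, changed by -1.13 ± 0.338 and -0.78 ± 0.073, the first call being lost without any 1 of the 4 libraries. Of 34 matrix glycoproteins, integrins and laminins, 5 were called lower (14.7%) and 0 higher, with a median of -0.153. LTBP1, which holds latent TGF-beta in the matrix, was at 8.3 and 10.1 eRPKM in siCtrl and 2.91 and 3.33 in siRAD21 OHT cells (-1.42 ± 0.095), and ITGB3, the beta-3 integrin, fell by 1.21. Of 26 matrix proteases, inhibitors and crosslinkers, 6 were called lower (23.1%) and 1, MMP17, higher. MMP17, like ITGB3, had a mean below 5 eRPKM in both groups. MMP14, a membrane-bound collagenase, fell from 37 and 36.6 to 21.3 and 22.1 eRPKM, and siCtrl OHT cells held nearly the same (21.3 and 21).

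Of 22 IGF binding proteins and genes of the BMP and TGF-beta response, 7 were called lower (31.8%) and 5 higher (22.7%). Over all genes, 6.51% were called lower and 6.62% higher. TGFBI, a matrix protein induced by TGF-beta, was at 42.3 and 38 eRPKM in siCtrl, 30.1 and 32 in siCtrl OHT, 26.8 and 26.1 in siRAD21 and 12.7 and 14.4 in siRAD21 OHT cells. No group overlapped another, and the log2 fold change was -1.53 ± 0.065. INHBA, the activin A chain, fell from 33.3 and 35.5 to 15.1 and 14.2 (-1.2 ± 0.08). FST, which binds and blocks activin, rose from 26.6 and 25.4 to 44.4 and 46.2 (0.79 ± 0.086), with siRAD21 alone at 51.4 and 51.8 and OHT alone at 19.6 and 19.2. BMP2 and BMP4, bone morphogenetic proteins, rose by 0.98 and 0.8. Of 15 YAP/TAZ factors and targets, 4 were called lower (26.7%, F3, WWTR1, TEAD2 and CTGF) and 0 higher, with a median of -0.238. RUNX2, the osteoblast transcription factor, fell by 0.85 ± 0.153, the 1 of 8 osteoblast lineage genes called. Of the 5 epithelial markers tested, CLDN4 and KRT14 were called lower (-1.34 and -0.746, the latter lost without siCtrl replicate 1 or siRAD21 OHT replicate 1) and EPCAM higher (1.39), and of leukocyte markers CD68 lower and ITGAM higher. The part that such markers play in the other results was not tested.

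The clustered protocadherins, adhesion proteins of neighbouring genes on chromosome 5 whose promoter choice is known to depend on CTCF and cohesin, gave 9 of 21 called lower (42.9%, against 6.51% of all genes) and 2 higher. Their median was -0.44. PCDHB2 was at 3.79 and 3.33 eRPKM in siCtrl, 3.31 and 2.52 in siCtrl OHT, 12.9 and 12.2 in siRAD21 and 10.7 and 11.5 in siRAD21 OHT cells, higher in both groups with the siRNA (1.51 ± 0.15). PCDHB8 was at 9.51 and 10.2, 6.62 and 5.75, 9.41 and 10.1, and 5.33 and 5.27 in the same order, lower in both groups with OHT (-0.838 ± 0.105). Across the family OHT in depleted cells called 16 lower and 0 higher (median -0.632), and 7.62% of all genes lower. Silencing under OHT called 4 higher and 0 lower (median 0.225), and 3.74% of all genes higher. PCDHB genes are close copies, so the split of reads among them is uncertain, and 43.8% of PCDHB2 exon bases overlap an antisense gene.

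Of 28 HOX cluster genes, 7 were called lower (25%) and 4 higher (14.3%), where 6.51% of all genes were called lower and 6.62% higher. HOXC11 and HOXC6 changed by -1.01 and -0.884, and HOXA3, HOXA5 and HOXA6 rose by 1.42, 0.535 and 0.777. HOXA6 was not called without siCtrl replicate 1 or either siRAD21 OHT library, and 40.1% of its exon bases overlap other annotated genes. HOXA3 and HOXA5 had means below 5 eRPKM in both groups. Of 180 LINC long noncoding RNAs, 14 were called higher and 14 lower (7.78% each, median 0.007), near the shares over all genes. LINC01164 rose from 0.891 and 1.21 to 5.47 and 6.44 eRPKM, by 2.06 ± 0.121, called for OHT in depleted cells and for silencing under OHT, and LINC00862 fell from 21.9 and 22.7 to 7.95 and 8.36. Of 16 circadian clock genes, 1 was called higher and 1 lower (6.25% each), also near those shares. NR1D1, the repressor REV-ERB alpha, rose by 0.68 and ARNTL2 fell by 0.633.

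Whether the combined change was more or less than the sum of the separate ones was asked with the interaction of siRNA and OHT at 24 h. With limma 0 genes (0.00%) passed, 906 had an unadjusted p below 0.05, and the lowest adjusted p was 0.107. With voom on the recovered reads 19 passed, 3 above 0 and 16 below, 1021 had an unadjusted p below 0.05, and the lowest adjusted p was 0.0161. Of these 19, TGFBI (-0.6), SFRP1 (0.72), a secreted Wnt inhibitor, and TGFB3 (0.73), a TGF-beta ligand, are named here after their values were seen. TGFBI thus fell further with both treatments than the sum of its single falls on the log2 scale under voom (adjusted p = 0.0161), and the same quantity was -0.58 under limma (adjusted p = 0.107).

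The same comparison at 48 h shares no library with that at 24 h. It called 4203 genes (28.0%). The 2 siRAD21 OHT libraries at 48 h differed by no more than sampling noise (chi-square per gene 0.984, against 1.076 to 4.537 in other pairs), so their mean is given without an SD, and each count from the fit of both libraries is followed by the count with the pair averaged to 1 sample. Averaged, the pair gave 4064 calls at 48 h. Of the 1969 genes called at 24 h, 1600 were called the same way at 48 h, which is 81.3% of the 24 h calls and 38.1% of the 48 h calls, and 25 were called the opposite way. With the pair averaged these were 1584 genes, 80.4% and 39%, and 22 the opposite way. The log2 fold changes correlated at r = 0.718 across the 14993 genes, which are not independent replicates. The difference between the times was called for 1604 genes (10.7%), 640 higher (4.27%) and 964 lower (6.43%) at 48 h. With the 48 h pair averaged it was called for 1274. The siRAD21 pair at 24 h, with a chi-square per gene of 1.076, was also close to sampling noise and was not averaged. That pair enters OHT in depleted cells and the interaction.

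ADCYAP1R1 was close to its 24 h change at 48 h (0.945 to 21.8 eRPKM, difference 0.312, not called). NXT2, too, kept about the same change (difference -0.084, not called). The fall of DRD1 was larger at 48 h (30.2 to 0.259 eRPKM, difference -2.015). Its siCtrl mean was higher than at 24 h (7.48), while siRAD21 OHT cells were about as low at 24 h (0.301). The falls of ACKR3, MN1, FOXS1 and LINC00511 were larger at 48 h too, by differences of -0.791, -1.39, -1.67 and -1.75. The siCtrl mean of LINC00511 was also higher at 48 h (16.8, against 8.03 at 24 h). RAD21 was at 93.1 eRPKM in siCtrl and 11.1 in siRAD21 OHT cells at 48 h, a fall larger by 0.874 on the log2 scale. RGS16 was higher in the 48 h control (11.8 eRPKM) and changed less (2.14, difference -0.892).

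**Figure D4:**
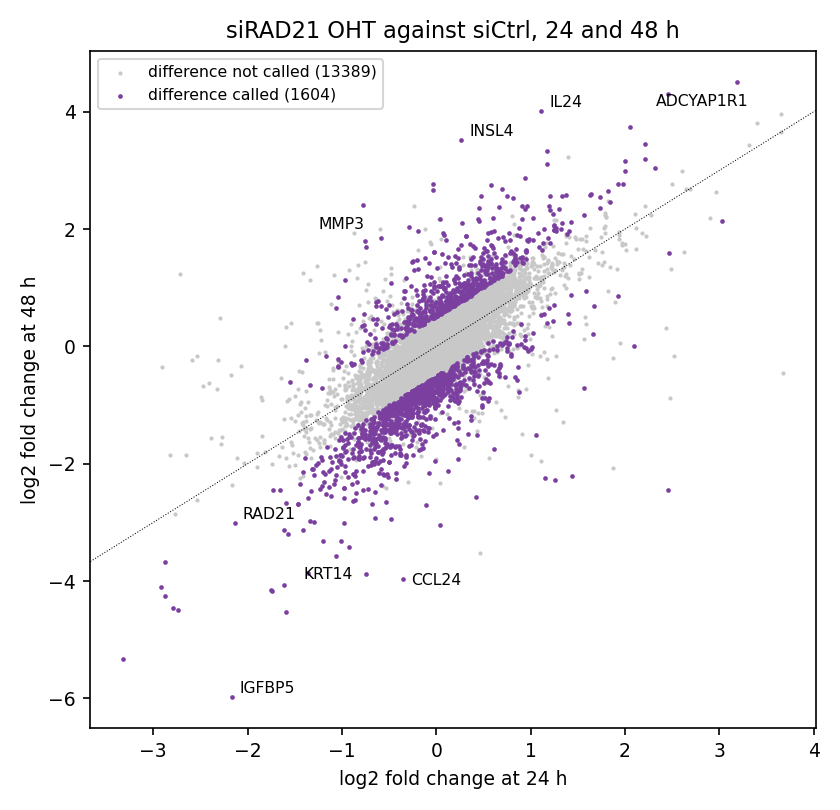
Log2 fold change of siRAD21 OHT over siCtrl at 48 h (vertical axis) against that at 24 h (horizontal axis), 1 point per gene. The 1604 genes whose change differed between the times (1274 with the 48 h siRAD21 OHT pair averaged) are purple, and the dotted line marks equal changes. IGFBP5 lies far below the line and INSL4 and IL24 far above it.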

How the data were processed

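The authors extracted total RNA, depleted ribosomal RNA, sequenced unstranded libraries, aligned reads to hg19 (TopHat2 2.0.8 per the submitters' processing notes), removed duplicates, counted (featureCounts 1.4.5) and deposited RPKM over exons (eRPKM) for 23399 genes. The values were used as deposited. Whole reads were recovered from them for 22040 of 22040 genes above 0 (100.0%, tolerance 0.01 reads) and 1359 genes were at 0. All 18 libraries were assigned from their labels.

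Log2(eRPKM + 0.5) of genes with a mean of at least 1 was fitted with limma 3.58.1 in R 4.3.3, with a mean per group over 8 groups, a variance trend and no block. P-values were adjusted by the Benjamini-Hochberg procedure over all genes per comparison, with thresholds of 0.05 on the adjusted p and 0.5 on the size of the log2 fold change. Fold changes are on the log2(eRPKM + 0.5) scale, which understates low genes. The authors used DESeq2. The genes named are the 12 largest rises and 12 largest falls among called genes whose libraries did not overlap and whose mean was 5 eRPKM or more in a group, up to 3 called genes per direction and list, cohesin genes, MCM2 to MCM7 and the largest differences between times. Others are named where a count of 5 or fewer falls outside this rule, after their values were seen. The members and gene lists were chosen with earlier results of these data known. Alternatives were other pseudocounts, filters, thresholds, scalings, groups in the fit, a replicate block, no trend, robust fitting, each library left out, and voom on recovered reads. Undoing duplicate removal and crossing the block were chosen after seeing the data. Overlaps used GENCODE on GRCh37, which is hg19. Figures used matplotlib 3.10.9 under Python 3.11.15. Libraries were not paired by replicate number in the main fit. Deviations of equally numbered libraries correlated at -0.169 to 0.071 at 24 h, which cannot show whether they came from the same experiment. No batch is given in the labels.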

Additional observations from a re-analysis of the deposited data

Results flagged for a closer look

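The change at 48 h differed from that at 24 h in 1604 genes by the test of the difference itself (limma, Benjamini-Hochberg adjusted), and in 1274 with the 48 h siRAD21 OHT pair averaged to 1 sample. The largest positive differences on the log2 scale, 48 h minus 24 h, were in INSL4, an insulin-like peptide (3.25), IL24, a cytokine (2.91), LINC00707 (2.56), MMP3, a stromelysin (2.44), IFIT2, an interferon-induced gene (2.44), and DCLK1, a microtubule-binding kinase (2.18). IL24 went from 1.18 to 26.2 eRPKM at 48 h, against 1.57 and 1.51 to 3.48 and 4.38 at 24 h. Of IL24 exon bases, 41.6% overlap FCMR on the opposite strand. MMP3, LINC00707 and IFIT2 had fallen at 24 h and were higher than siCtrl at 48 h, with 48 h log2 fold changes of 1.86, 1.8 and 1.7. The largest negative differences were in IGFBP5 (-3.81), CCL24, a chemokine (-3.62), KRT14, a keratin (-3.14), MIR4729 (-2.98), SLITRK6 (-2.94) and MIR921 (-2.56). IGFBP5 went from 82 to 0.806 eRPKM at 48 h, and CCL24 from 10.9 to 0.243. The siCtrl mean of IGFBP5 was lower at 24 h (31.6 eRPKM), when siRAD21 OHT cells were at 6.63. MIR4729 and MIR921 are short hairpins whose values rest on few reads, and SLITRK6 had at most 2 reads in siRAD21 OHT libraries at 24 h.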

How the results depend on the processing

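The number of genes called in the combined comparison, 1969, fell to 1186 with a mean of at least 5 eRPKM, to 402 with a threshold of 1, and rose to 5154 with no fold change threshold. For OHT in depleted cells (1785) these settings gave 1024, 293 and 5276, for silencing under OHT (970) 610, 128 and 3000, and for the difference between times (1604) 998, 395 and 3278. The first and second settings test or pass fewer genes by construction. The interaction count, 0, became 5 with all genes above 0, 12 after quantile normalization, 4 with a replicate block and 19 with voom. The cause was not tested. Leaving out each library in turn gave 1809 to 1980, 1555 to 1806, 855 to 889 and 1329 to 1707 for these counts and 0 for the interaction.

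With a replicate block the combined comparison called 1988 genes, and with the numbers of the siCtrl libraries crossed 1999. With only the siCtrl and siRAD21 OHT libraries at 24 h in the fit, the combined comparison called 1978. Apart from the interaction, the block moved no count by over 1.5 times and ended no call of a named gene. Voom on recovered reads called 2248 and undoing duplicate removal 2115.

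Some values changed sign, most of them small. The median of HOX clusters, -0.123, became 0.008 with all genes above 0. That of the epithelial markers was not small, at -0.377, and became 0.027 with at least 5 eRPKM. Leaving out each library in turn, the median of leukocyte markers ran from -0.522 to 0.061 (the latter without siRAD21 OHT replicate 2), and MCM5 from -0.067 to 0.068 (negative without replicate 2 of either group). PDS5B ran from -0.024 to 0.074 (negative without siCtrl replicate 1 or siRAD21 OHT replicate 2) and STAG2 from -0.12 to 0.023 (positive without siCtrl replicate 2). MCM5 was also -0.033 after quantile normalization and -0.004 with duplicate removal undone. MNT, COL5A1, MIR942, BIK, KRT14, HOXA6, HOXC8, HOXD11, DHCR7, PMVK, DHODH, IMPDH1, MRPS25, PCDHB5, PCDHB14, ITGB8 and COL13A1 lost their call without at least 1 of the 4 libraries, and MCM6 gained one without siCtrl replicate 1 (0.513) and with duplicate removal undone (0.509). The difference between times lost its call in MIR4729 without siCtrl replicate 1 or 2, siRAD21 OHT replicate 1, siCtrl 48 h replicate 1 or siRAD21 OHT 48 h replicate 1, and SLITRK6 with voom. With 2 libraries per group, leaving one out leaves a lone sample assumed to vary like the others.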
